A study of Mus musculus with 686 samples.

Results

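The 5 members are the mature 3p strands of the miR-23, miR-27 and miR-24 clusters, mmu-miR-23a-3p, mmu-miR-23b-3p, mmu-miR-24-3p, mmu-miR-27a-3p and mmu-miR-27b-3p. They were taken by name from the 1964 miRNAs of the miRNA count table, and all 5 had at least 5 counts in all 686 libraries. Levels are given as CPM, the count of a miRNA in each 1 M miRNA counts of its library.

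The libraries came from 13 tissues, taken from female mice of the strain BALB/cAnNTac in 3 arms. Spaceflight mice (FL) were flown to the International Space Station, habitat ground controls (HGC) were kept on Earth in flight hardware with matched temperature, humidity and carbon dioxide, and vivarium ground controls (VGC) were kept in standard cages. All mice were given NASA food bars, and each arm held mice of 3 and 8 months of age. Live animal return mice (LAR) came back to Earth alive and were killed there days later. In TERM, flight mice were killed on the station and their controls on Earth earlier in the mission, the spleen was put in RNA Later, and the carcass was frozen whole and thawed later for dissection of the other tissues. Flight mice of TERM and LAR therefore differ in time in flight, return and preservation, while the ground controls of the 2 protocols had neither flight nor return and differ in preservation, in time of collection and in handling, such as the move of LAR controls to the place of dissection. Within each set these differences cannot be told apart. Brain of LAR and pancreas of TERM came from mice of 3 months alone. The 4 adipose depots were gonadal (GAT), mesenteric (MAT), subcutaneous (SCAT) and brown (BAT).

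A miRNA guides the silencing complex to messenger RNAs through its seed, bases 2 to 8 from the 5′ end. Mammals carry 2 copies of this cluster. The a cluster holds miR-23a, miR-27a and miR-24-2, and the b cluster holds miR-23b, miR-27b and miR-24-1. Members of the clusters are known from work on adipocyte differentiation, where miR-27 restrains the regulator PPARγ, on lipid metabolism in liver, on endothelium and on blood cell development.

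The sequences are shown because the comparison of the a and b clusters rests on how few bases separate them. Capitals mark the seed, and the sequences and positions are those of RefSeq on GRCm38.p6, in which all 6 lie on the plus strand.
mmu-miR-23a-3p: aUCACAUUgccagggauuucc
mmu-miR-27a-3p: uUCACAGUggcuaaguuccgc
mmu-miR-27b-3p: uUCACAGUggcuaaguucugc
mmu-miR-24-3p: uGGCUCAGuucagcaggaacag
mmu-miR-24-2-5p: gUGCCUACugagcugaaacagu
mmu-miR-24-1-5p: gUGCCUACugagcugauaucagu
The miR-27 paralogues differ at 1 of 21 bases, C19U counted from the 5′ end of miR-27a-3p, and share the seed UCACAGU, which no other of the 1679 mature entries in the RefSeq table carries. mmu-miR-23b-3p is named only, because the RefSeq table held no mature entry for it. Its bases were therefore not compared with those of miR-23a-3p, and whether short reads of that pair can be assigned was not examined. A read that ends before base 19 cannot be assigned to miR-27a-3p or miR-27b-3p, and how such reads were counted is not given in the sources used here. None of the deposited values of the members carried a fraction, against 0.790% of all miRNA values.

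The a cluster spans 404 bases at chr8:84208518-84208921. There miR-23a-3p lies at chr8:84208563-84208583, miR-27a-3p at chr8:84208727-84208747, miR-24-2-5p at chr8:84208839-84208860 and miR-24-3p at chr8:84208875-84208896. The last hairpin, Mir24-2, shares 2 bases with an exon of the long intergenic RNA gene Gm26532. The b cluster spans 792 bases at chr13:63300484-63301275, inside the gene 2010111I01Rik on the same strand and in an intron of Fancc, a Fanconi anaemia gene, on the opposite strand. miR-27b-3p lies at chr13:63300760-63300780, in a hairpin that overlaps 1 annotated exon of 2010111I01Rik. Mir24-1 overlaps 4 of its annotated exons and Mir23b none. The strand miR-24-3p is identical in both clusters and is counted as 1 miRNA, with its other copy at chr13:63301251-63301272, so it cannot show which cluster it came from. The 5p strands of the miR-24 hairpins can, since miR-24-2-5p has 22 bases and miR-24-1-5p, at chr13:63301213-63301235, has 23 and differs from it at 5 positions read from the 5′ end without gaps (A17U, C19U, A20C, G21A and U22G).

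The median library had 3.88 M counts on miRNAs, the shallowest 0.181 M and the deepest 30.5 M, and the lowest count of a member in any library was 798. The 5 members together took 1.41% to 16.8% of the miRNA counts, with a median of 5.28%. The miRNA profile of each library, taken without any strand of the clusters, was set beside the median profile of each tissue, and 165 of 686 libraries were nearest to a tissue other than their label. Of these, 118 lay in 11 of the 44 sequencing pools, in each of which more than 1 in 3 libraries were nearest to another tissue. Those 11 pools held 168 libraries and are called the doubted pools. The sample titles name neither the pool nor the extraction plate of a library. MAT stood apart, with 45 of 57 libraries nearest to another tissue, mostly pancreas or spleen, while brain had 0 of 25. All libraries were kept for the values given first, and values without the doubted pools or without the libraries nearest to another tissue are given beside several of the results.

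The levels of the 5 members were ordered by tissue in LAR, where lung or kidney led for most of them and brain or liver stood last. miR-24-3p in lung had the highest median of any member in any tissue of LAR, while miR-27b-3p stood above miR-24-3p in liver, for example, with medians of 9971 and 7282 CPM. The CPM of miR-24-3p in lung was 12348 at the lowest, 32531 at the median and 52379 at the highest of 30 libraries. In liver its values were 4984, 7282 and 22580 over 29 libraries. The medians thus spanned 4.47-fold, and only the upper tail of liver reached into the range of lung. By rank of the tissue median among all miRNAs, miR-24-3p stood 9th in heart and in lung, and 23rd in liver. In bulk tissue, fewer cells that make a miRNA and less of it per cell cannot be told apart.

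**Figure D1:**
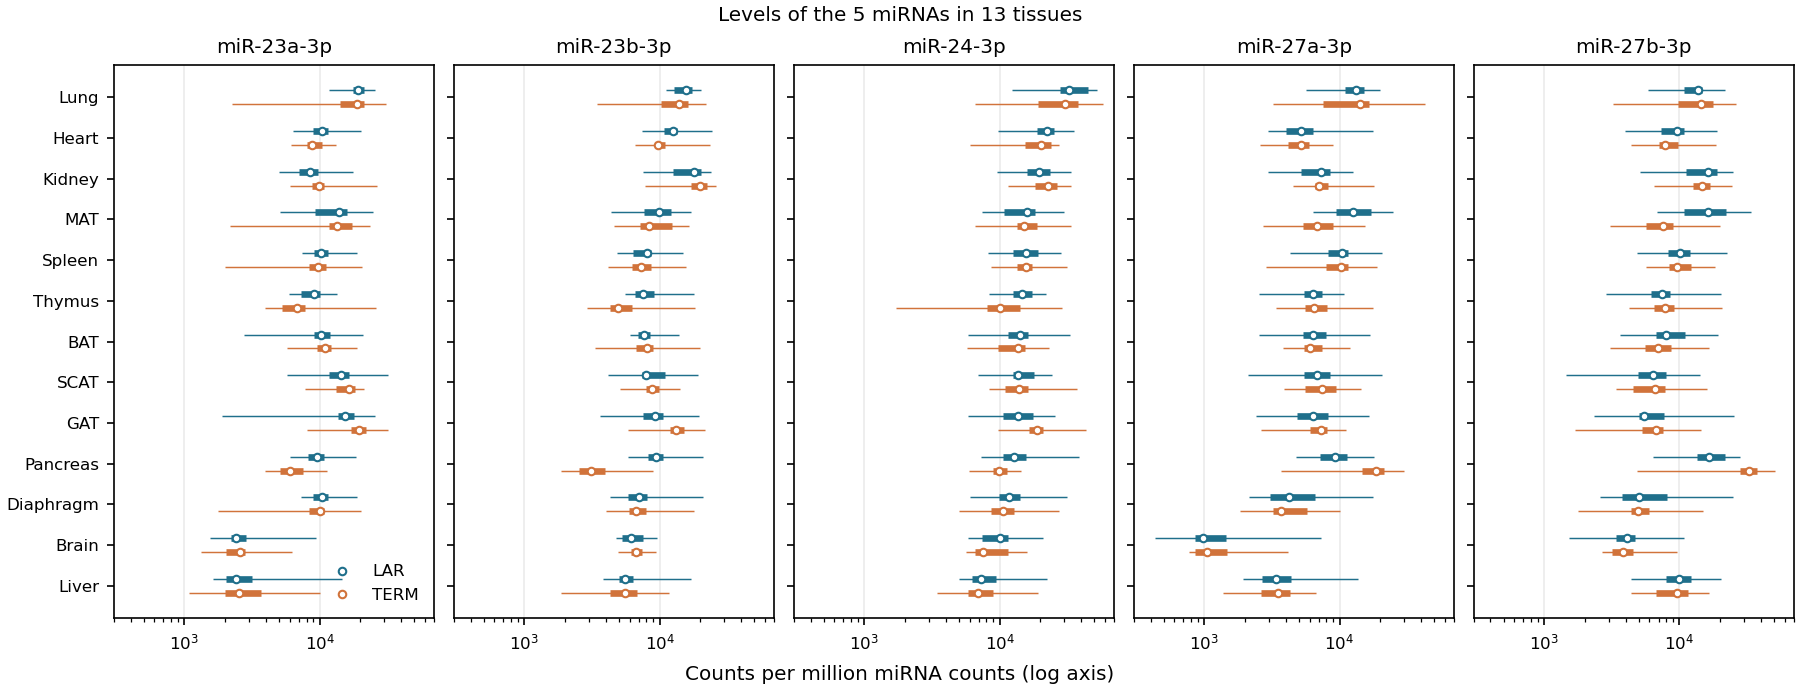
Level of each of the 5 miRNAs (x axis, CPM, log axis) in 13 tissues (y axis), for LAR and TERM. Open circles are medians, thick bars the middle 50% of the libraries and thin lines the full range; miR-27a-3p in brain, with a median of 982 CPM in LAR, is the lowest point, and miR-23b-3p in pancreas, with medians of 9343 in LAR and 3133 in TERM, has the widest gap between the protocols.

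The a cluster members varied most between tissues in LAR. The CPM of miR-27a-3p in brain was 429 at the lowest, 982 at the median and 7339 at the highest of 12 libraries, and in lung it was 5652, 13232 and 19946. Its medians spanned 13.5-fold, with brain below every other tissue. The 7339 came from VGC mouse 5, a library in a doubted pool, and without those pools the highest of 11 brain libraries had 2020 CPM. miR-23a-3p spanned 8.06-fold, from a median of 2391 in liver and 2426 in brain up to 14476 in SCAT, 15335 in GAT and 19262 in lung. So miR-23a-3p was low in brain and liver alike, and its highest medians after lung were those of white fat.

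In LAR the b cluster members spanned less. miR-23b-3p went from a median of 5560 CPM in liver to 18052 in kidney, or 3.25-fold, and kidney libraries ranged from 7489 to 24033. miR-27b-3p went from 4057 in brain to 16443 in pancreas, 16315 in kidney and 16272 in MAT, or 4.05-fold, with GAT at 5457 and SCAT at 6381. Liver stood among the lowest tissues for 4 of the members but sixth for miR-27b-3p, with 4386, 9971 and 20370 CPM as lowest, median and highest. Without the libraries nearest to another tissue, the top tissue of miR-27b-3p was kidney at 17652, and the top and bottom tissues of the other 4 members were unchanged. In TERM the order of the spans was different, with 17.9-fold for miR-27a-3p, 8.52-fold for miR-27b-3p, 7.73-fold for miR-23a-3p, 6.40-fold for miR-23b-3p and 4.39-fold for miR-24-3p. Pancreas was there the top tissue of both miR-27 strands and the bottom tissue of miR-23b-3p.

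Most neighbours in these orders did not differ beyond their spread. Of 60 pairs of adjacent tissues, 9 passed a 2-sided permutation test on log2 CPM with Benjamini-Hochberg adjustment. For miR-23a-3p, lung was above GAT by 0.49 (adjusted p = 0.00045) and kidney above brain by 1.63 (adjusted p = 0.0003, from the smallest p that 100000 resamples can give). For miR-27a-3p the breaks were pancreas over kidney by 0.47 (adjusted p = 0.0056) and liver over brain by 1.64 (adjusted p = 0.0003). miR-23b-3p broke between lung and heart (0.31, adjusted p = 0.00432) and between heart and MAT (0.39, adjusted p = 0.0282), while kidney did not pass against lung. For miR-24-3p they were lung over heart (0.69, adjusted p = 0.0004) and kidney over MAT (0.38, adjusted p = 0.0237), and miR-27b-3p had 1 break, lung over spleen (0.38, adjusted p = 0.0282). Tissues came from the same mice and the test took their libraries as independent. These p-values, like all others here, measure the spread between libraries.

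Across the 13 tissue medians of log2 CPM, the 2 members of the a cluster had a Pearson's r of 0.81 (miR-23a-3p with miR-27a-3p) and those of the b cluster one of 0.62 (miR-23b-3p with miR-27b-3p). Pairs from different clusters ran from 0.27 (miR-23a-3p with miR-27b-3p) to 0.70 (miR-27a-3p with miR-27b-3p), so not every pair within a cluster stood above those between clusters. These are descriptions over 13 points that share libraries. Among 594 other miRNAs, the profiles most like miR-23a-3p were those of miR-224-5p (r = 0.913), miR-199b-5p (0.871) and miR-423-5p (0.852), and those most like miR-27a-3p were miR-199b-5p (0.914), miR-224-5p (0.913) and miR-143-3p (0.908). The first 2 of each list were thus the same pair. For miR-23b-3p they were miR-30d-5p (0.865), miR-30b-5p (0.827) and miR-30c-5p (0.783), and for miR-27b-3p miR-30b-5p (0.918), miR-30b-3p (0.848) and miR-26b-5p (0.834). miR-24-3p, made from both clusters, was most like miR-30d-5p (0.823), miR-450b-3p (0.810) and miR-542-5p (0.762).

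The use of the a against the b cluster was read from 3 pairs of paralogous strands, each as the share of the a strand in the counts of both within a library, which does not depend on scaling. In LAR all 3 put GAT and SCAT at the top and brain at the bottom. MAT, the other white depot, stood in the middle, with median shares of 56.4% for miR-23, 44.4% for miR-27 and 86.2% for miR-24. For miR-23 in LAR, the share of miR-23a-3p in GAT was 29.7% at the lowest, 62.8% at the median and 73.8% at the highest of 30 libraries, and in brain it was 24.5%, 28.2% and 49.6% of 12. Kidney (median 31.0%) and liver (31.1%) stood next to brain. For miR-27 the median share of miR-27a-3p was 52.2% in GAT, 52.0% in SCAT, 30.1% in kidney, 25.0% in liver and 20.7% in brain. For the miR-24 hairpins the median share of miR-24-2-5p was 92.4% in GAT, 89.5% in SCAT, 74.9% in kidney and 60.9% in brain. Liver, at 82.3%, stood closer to heart (83.9%) on this pair than on the other pairs.

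**Figure D2:**
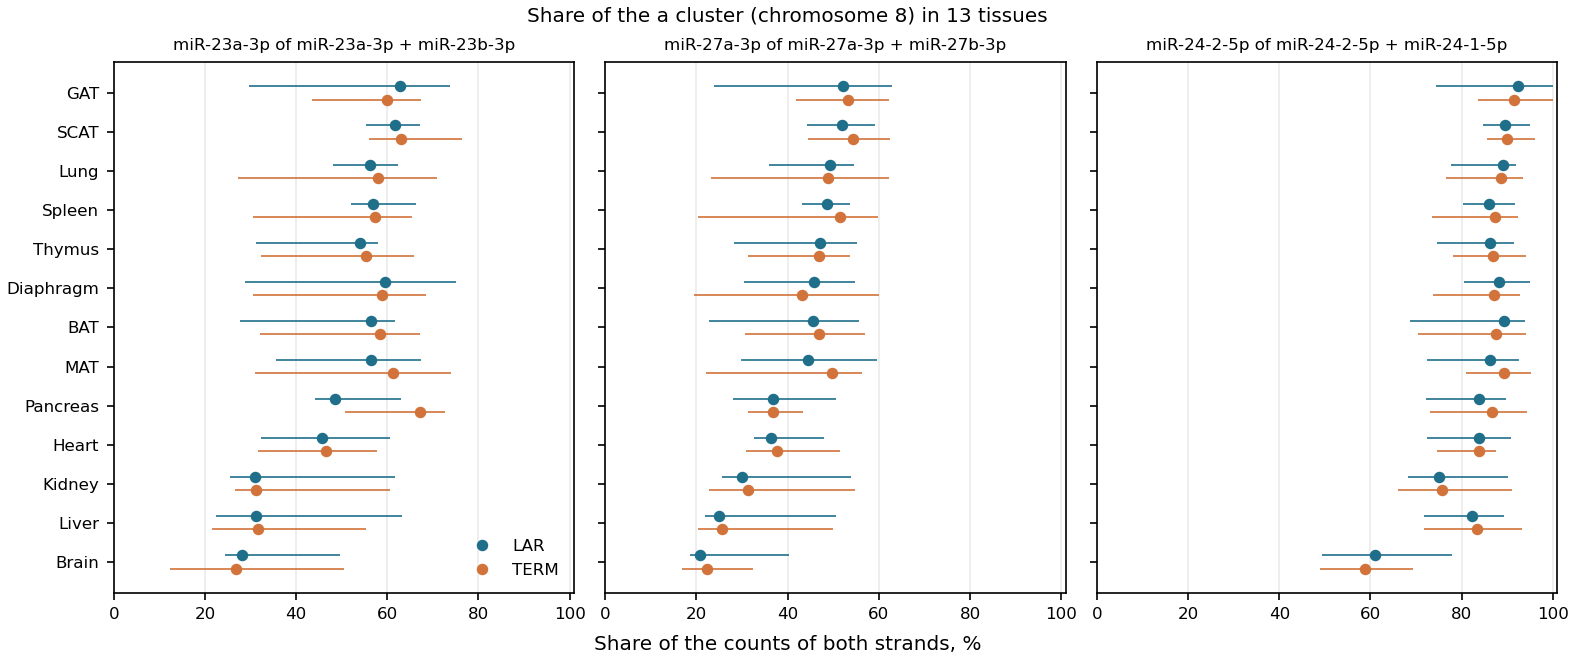
Share of the a cluster strand in the counts of both paralogous strands (x axis, %) for miR-23-3p, miR-27-3p and miR-24-5p in 13 tissues (y axis). Points are medians and lines the full range of the LAR and the TERM libraries; the miR-24-5p shares lie above the other shares in every tissue, and the miR-23 share in pancreas, with medians of 48.6% in LAR and 67.3% in TERM, has the widest gap between the protocols.

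The tissue order was similar for strands of different sequence. Across 13 tissues of LAR, the mean log2 ratios of the a to the b strand had r = 0.966 for miR-23 with miR-27. They had r = 0.892 for miR-23 with miR-24 and 0.904 for miR-27 with miR-24. In TERM the values were 0.861, 0.868 and 0.894. The miR-24-5p shares rest on few counts, since the median library had 249 counts of miR-24-2-5p and 40 of miR-24-1-5p. Differences between strands in ligation and capture were not tested, so the order of tissues can be read from these shares, and the absolute split between the clusters cannot.

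When all 78 pairs of tissues were tested, a comparison chosen after the data were seen, 59 pairs differed for miR-23, 67 for miR-27 and 61 for miR-24 in LAR (2-sided permutation test, Benjamini-Hochberg over all pairs of tissues and strands). Brain differed from 10 of the 12 other tissues for miR-23 and from 12 for each of miR-27 and miR-24, with the same counts for kidney. Without the libraries nearest to another tissue the counts were 64, 67 and 61, and in TERM they were 56, 62 and 52. Among neighbours in the order alone, 8 of 36 pairs passed, and the widest were kidney over brain for miR-24 (log2 ratio apart by 1.16, adjusted p = 0.00018), heart over liver for miR-23 (0.75, adjusted p = 0.00018) and MAT over pancreas for miR-27 (0.44, adjusted p = 0.00228).

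The 6 other strands of the hairpins were scarce. In LAR miR-24-2-5p led, with median CPM from 25.7 in brain to 186 in lung. miR-23a-5p went from 1.25 in liver to 21.3 in SCAT and 20.9 in GAT, and miR-27a-5p was at 0.89 in brain. The b cluster strands were also low in liver, which was the lowest tissue for miR-23b-5p (5.32) and miR-27b-5p (4.52).

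Spaceflight was compared with habitat controls to separate flight from housing. No member was called by edgeR in any tissue, and DESeq2 called 1, miR-27a-3p in lung of TERM. In LAR, 0 of 65 tests (5 members in 13 tissues) passed an adjusted p under 0.05 by edgeR's quasi-likelihood test, where 1.54% of all tests over the miRNA table were called, and 1 of 65 had an unadjusted p under 0.05, against 12.3% of all. The log2 fold changes ran from -0.72 to 0.48. Their median size was 0.12, while the median size over all miRNAs of a tissue lay between 0.34 and 0.58. For 58 of 65 tests, and for miR-24-3p in all 13 tissues, the 95% interval lay within a 2-fold change either way (a log2 value between -1 and 1). In TERM, 0 of 65 were called (0.307% of all tests), 1 had an unadjusted p under 0.05 (9.17% of all), the changes ran from -0.62 to 1.07, and 48 of 65 intervals lay within 2-fold. In LAR DESeq2 gave a p for 64 of the 65 and none for brain miR-27a-3p.

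**Figure D3:**
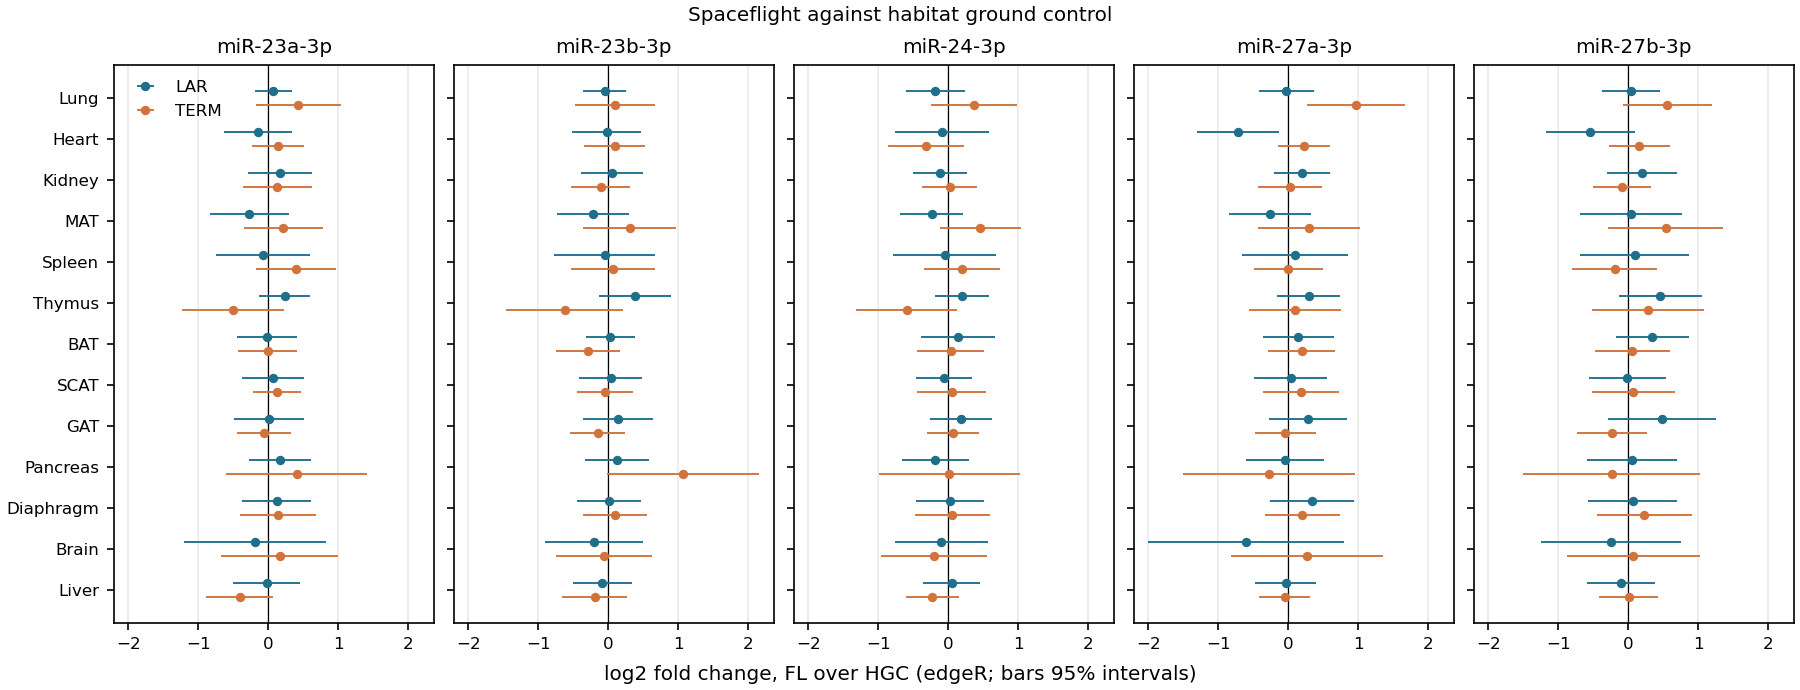
Log2 fold change of FL over HGC from edgeR (x axis) for each of the 5 miRNAs in 13 tissues (y axis), in LAR and TERM. Points are estimates and bars 95% intervals; all bars cross 0 except those of miR-27a-3p in heart of LAR and in lung of TERM, neither of which passed the adjusted threshold.

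The lowest unadjusted p values belonged to miR-27a-3p. In heart of LAR its CPM was 3084, 3710 and 6529 (lowest, median, highest) in 6 FL libraries and 4866, 6087 and 17630 in 6 HGC libraries, so the arms overlapped. The log2 fold change was -0.72 (SE 0.28, adjusted p = 0.281). The highest HGC value came from mouse 8, nearest to another tissue and in a doubted pool, and without those pools the fold change was -0.33. In lung of TERM the values were 4709, 17209 and 43049 in 10 FL libraries and 3212, 8665 and 16535 in 9 HGC libraries. Here the log2 fold change was 0.97 (SE 0.34, adjusted p = 0.102), DESeq2 called it (adjusted p = 0.0416), and without the doubted pools edgeR gave 0.56 (adjusted p = 0.492). The highest estimate, miR-23b-3p in pancreas of TERM, was 1.07 (SE 0.52, adjusted p = 0.468) with 4 FL and 5 HGC libraries.

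Against vivarium controls, 0 of 65 tests were called for FL in LAR (0.736% of all tests) and 0 of 65 in TERM (0.712%), with 2 and 0 at an unadjusted p under 0.05. Both comparisons of FL share the FL libraries. For brain in LAR, 4 libraries an arm, miR-27a-3p had a log2 fold change of -1.85 (SE 0.67, adjusted p = 0.297) and miR-23a-3p one of -1.17. In VGC mouse 5 miR-27a-3p stood at 7339 CPM, while the other 3 VGC brains had 790 to 1108. Without that library the values were -0.46 for miR-27a-3p and -0.42 for miR-23a-3p. Between the 2 kinds of housing on Earth, HGC against VGC, 0 of 65 were called in LAR (0.176% of all tests) and 0 of 65 in TERM (0.251%), with 1 and 1 at an unadjusted p under 0.05. DESeq2 called 0 in these 4 comparisons, and gave no p for brain miR-27a-3p in either comparison of LAR. The 6 other strands of the hairpins had 0 of 78 calls in each of the 6 comparisons of arms, with 0 to 8 at an unadjusted p under 0.05.

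Whether the flight contrast differed between protocols or ages was tested directly. The FL against HGC difference in LAR minus that in TERM was called in 0 of 65 tests (1.04% of all), and its extreme value was -1.01 for lung miR-27a-3p (adjusted p = 0.127), which DESeq2 called and which was -0.50 without the doubted pools. The difference of that contrast between 8 and 3 months was called in 0 of 60 tests of LAR (0.113% of all) and 0 of 55 of TERM (1.16%). These interactions were estimated loosely, with a median SE of 0.50 in each protocol, and 11 of 60 and 9 of 55 intervals lay within 2-fold. Diaphragm miR-27a-3p in LAR had -1.56 (SE 0.52, adjusted p = 0.135) and heart miR-24-3p in TERM 1.28 (adjusted p = 0.115), each called by DESeq2. At unadjusted p under 0.05 the counts were 4 of 65, 2 of 60 and 1 of 55.

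Cluster use was also compared between FL and HGC. In LAR 0 of 39 shares (3 strand pairs in 13 tissues) passed, and 0 had an unadjusted p under 0.05, with differences of the log2 ratio from -0.32 to 0.53. In TERM 1 of 39 passed, the miR-24-5p share in spleen. It was 86.3%, 88.2% and 92.5% (lowest, median, highest) in 9 FL spleens and 73.4%, 83.6% and 88.6% in 9 HGC spleens, and 82.0%, 88.2% and 90.9% in 8 VGC spleens. The FL and HGC values overlapped, FL and VGC had the same median, and HGC held the low values. The log2 ratio differed by 0.68 (exact permutation test, 2-sided, p = 0.000905, adjusted p = 0.0353), and the call was lost without the doubted pools and without the libraries nearest to another tissue.

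By age no member was called in LAR. In 12 tissues, 0 of 60 tests of 8 against 3 months were called (0.296% of all tests), 1 had an unadjusted p under 0.05, DESeq2 called 0, and 59 of 60 intervals lay within 2-fold. That lowest p was thymus miR-27b-3p, at -0.51 (adjusted p = 0.223). The shares of the a cluster gave 0 of 36 calls by age, with 3 at an unadjusted p under 0.05.

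In TERM 2 of 55 tests of age were called (2.00% of all tests), both of them miR-27 in MAT, where 13.9% of all miRNAs were called, and 10 of 55 had an unadjusted p under 0.05, or 18.2% against 15.3% of all tests. miR-27b-3p had 6029, 8849 and 20036 CPM (lowest, median, highest) in 15 libraries of 3 months and 3058, 5545 and 14070 in 14 libraries of 8 months. It was lower at 8 months by a log2 fold change of -1.17 (SE 0.27, adjusted p = 0.00428). miR-27a-3p had 2723, 8784 and 15449 CPM at 3 months and 3256, 5807 and 14293 at 8 months, a change of -0.92 (SE 0.25, adjusted p = 0.0130). The ages overlapped for both. With the extraction plate as a term neither was called (miR-27b-3p -0.63, adjusted p = 0.880, and miR-27a-3p -0.38, adjusted p = 1.0), and with scaling by library size alone miR-27a-3p was not (-0.53, adjusted p = 0.123). The makeup of these libraries moved with age too, since 10 of 14 at 8 months were nearest to spleen and 1 to MAT, against 6 of 15 nearest to MAT at 3 months. The summed CPM of the 3 leukocyte markers (miR-142a-3p, miR-150-5p and miR-223-3p) had a median of 108852 at 8 months, ranging from 8830 to 187463, and of 18373 at 3 months, ranging from 1886 to 134753. The smooth muscle markers (miR-143-3p and miR-145a-5p) moved the other way, with a median of 158930 at 3 months, ranging from 19809 to 467993, and of 63889 at 8 months, ranging from 28946 to 186961. Median sums also fell from 1231 to 389 for pancreas markers (miR-216a-5p, miR-217-5p and miR-375-3p) and from 2220 to 1002 for epithelium markers (miR-200c-3p and miR-141-3p). Within the pancreas list miR-217-5p rose, from 25.7 to 35.2, and the ages overlapped for both sums. The part of any of these lists in the result was not tested, and MAT could not be fitted without the libraries nearest to another tissue. In SCAT the same strands had estimates of the opposite sign, 0.67 for miR-27b-3p (adjusted p = 0.0709) and 0.59 for miR-27a-3p (adjusted p = 0.0969), not called by edgeR and both called by DESeq2 as higher at 8 months (0.68, adjusted p = 0.0150, and 0.60, adjusted p = 0.0218). The difference between the depots was not tested.

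TERM and LAR were compared within tissues across the 3 arms, since their mice were preserved differently. Of 65 tests 6 were called (6.81% of all tests), 4 in pancreas and 2 in MAT. In pancreas, where 15.9% of all miRNAs were called, miR-23 was lower and miR-27 higher in TERM, so that strands cut from the same clusters went opposite ways. TERM held 11 pancreas libraries (4 FL, 5 HGC and 2 VGC) and LAR 28.

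Over the ground controls alone, an alternative added after the data were seen, 3 of 65 members were called (4.32% of all tests), miR-23b-3p in pancreas (-1.61, adjusted p = 0.000404) and miR-27b-3p (-1.35, adjusted p = 0.000279) and miR-27a-3p (-1.08, adjusted p = 0.000458) in MAT. In pancreas miR-27a-3p had 0.74 (adjusted p = 0.110), miR-27b-3p 0.82 (adjusted p = 0.121) and miR-23a-3p -0.57 (adjusted p = 0.122), with 7 ground libraries of TERM.

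Further members passed under other settings. The share of all miRNAs called under each of these settings is not given here, so the calls cannot be set beside it. In GAT miR-23b-3p was called as higher in TERM with scaling by library size alone (0.55, adjusted p = 0.00204), without the doubted pools (0.39, adjusted p = 0.0266) and without the libraries nearest to another tissue (0.35, adjusted p = 0.0209). In heart miR-23b-3p was called as lower without the doubted pools (-0.30, adjusted p = 0.0458), and miR-23a-3p by DESeq2 (-0.27). In pancreas DESeq2 also called miR-24-3p as lower (-0.42, adjusted p = 0.0433). In thymus miR-27a-3p had a log2 fold change of 0.33 (edgeR adjusted p = 0.0968) and miR-27b-3p 0.37 (adjusted p = 0.142), and DESeq2 called both, at 0.48 and 0.53. Without the libraries nearest to another tissue, thymus miR-23a-3p (-0.28), miR-23b-3p (-0.41) and miR-24-3p (-0.49) were called by edgeR as lower in TERM.

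miR-23b-3p differed most. Its CPM was 5869, 9343 and 21007 (lowest, median, highest) in LAR and 1863, 3133 and 8936 in TERM, and 9 of the 11 TERM libraries lay below every LAR library. The log2 fold change was -1.41 (SE 0.23, edgeR adjusted p = 9.57e-05), and it was called when each of the 39 libraries was left out in turn, with values from -1.46 to -1.26. miR-23a-3p had 6020, 9639 and 18482 CPM in LAR and 3918, 6075 and 11354 in TERM, with 5 of 11 TERM libraries below the LAR range and a change of -0.59 (SE 0.19, adjusted p = 0.0250). The median of all miRNAs in this fit was -0.44, and relative to it miR-23a-3p stood at -0.15 and miR-23b-3p at -0.98. Without the doubted pools that median was -0.07, and the relative values were -0.40 and -1.29. The call of miR-23a-3p held in 24 of the 39 fits that left out 1 library and was lost with scaling by library size alone (-0.53, adjusted p = 0.0527), with no filter on low counts (-0.52, adjusted p = 0.137) and without the doubted pools (-0.47, adjusted p = 0.0504).

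Both miR-27 3p strands were higher in TERM pancreas. miR-27b-3p had 6408, 16443 and 27910 CPM in LAR and 4827, 32541 and 51262 in TERM, and 8 of 11 TERM libraries lay above the LAR range and 1 below it. Its change was 0.79 (SE 0.27, adjusted p = 0.0365). miR-27a-3p had 4769, 9277 and 17869 CPM in LAR and 3702, 18648 and 29751 in TERM, with 6 of 11 above the LAR range and a change of 0.73 (SE 0.23, adjusted p = 0.0261). Relative to the median miRNA these were 1.23 and 1.17, and 0.90 and 0.88 without the doubted pools. Both calls held in 36 of 39 fits that left out 1 library and were lost without TERM VGC mouse 2, VGC mouse 3 or FL mouse 4. miR-24-3p had -0.48 (adjusted p = 0.0863). Relative to the median miRNA it stood at -0.05, and at -0.43 without the doubted pools.

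**Figure D4:**
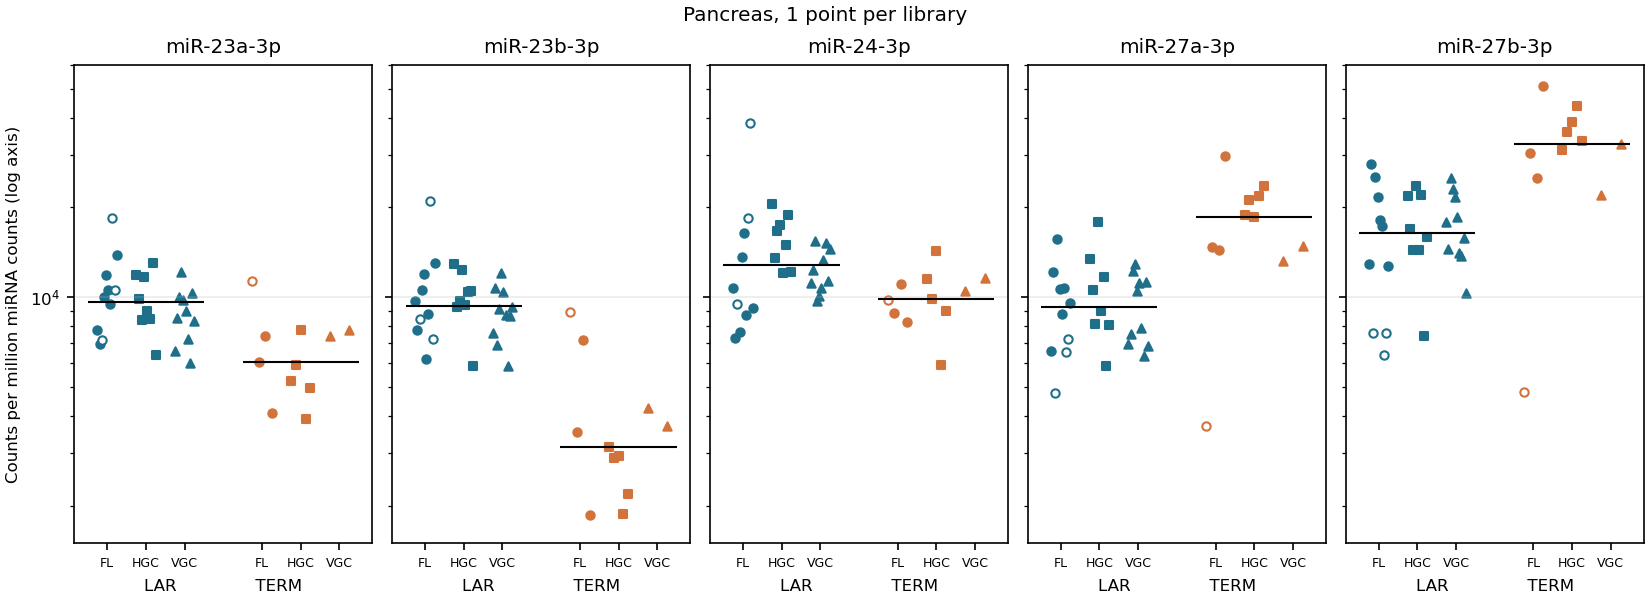
Level of each of the 5 miRNAs (y axis, CPM, log axis) in every pancreas library, by arm, in LAR and TERM. Circles are FL, squares HGC and triangles VGC, open symbols are libraries nearest to another tissue, and black lines are medians; 9 of the 11 TERM points of miR-23b-3p lie below all LAR points, and 6 of miR-27a-3p and 8 of miR-27b-3p lie above them.

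The single TERM pancreas with low miR-27 was FL mouse 1, the only one of the 11 nearest to another tissue (MAT). Without the libraries nearest to another tissue all 4 calls held. With mice of 3 months alone, an alternative added after the data were seen, miR-23b-3p was called (-1.50, adjusted p = 0.000951), and miR-27a-3p (0.79, adjusted p = 0.0693), miR-23a-3p (-0.60, adjusted p = 0.0820) and miR-27b-3p (0.81, adjusted p = 0.104) were not. With the extraction plate as a term, neither miR-27a-3p (0.62, adjusted p = 0.109) nor miR-27b-3p (0.70) was called. The summed CPM of the pancreas markers (miR-216a-5p, miR-217-5p and miR-375-3p) was 1584, 103592 and 205888 in LAR and 71309, 90020 and 151667 in TERM. Within this list the medians did not move together. That of miR-216a-5p was 12847 in LAR and 23072 in TERM, and that of miR-217-5p was 13646 and 13291. The protocols overlapped for both. miR-375-3p had the highest median of the list in LAR, at 73550, so the sum mostly follows it there. Smooth muscle markers (miR-143-3p and miR-145a-5p) had median sums of 20913 in LAR and 46105 in TERM. The markers of that pair went different ways, with medians of 17027 and 38965 for miR-143-3p and of 4097 and 3644 for miR-145a-5p. Leukocyte markers had median sums of 4531 in LAR and 2018 in TERM. The part of any of these in the result was not tested.

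Within a library, the ratio of miR-27 to miR-23 counts does not depend on scaling; it was chosen after these values were seen and is given without a test. In LAR pancreas miR-27b-3p over miR-23b-3p was 0.31, 1.81 and 3.64 (lowest, median, highest), and in TERM 0.54, 9.98 and 27.5, with 9 of 11 TERM libraries above every LAR library. For miR-27a-3p over miR-23a-3p the values were 0.35, 1.06 and 1.74 in LAR and 0.33, 2.43 and 7.27 in TERM, with 10 of 11 above. The TERM library that was not above was FL mouse 1, nearest to MAT, and the lowest of the other 10 had 1.78. In thymus the median ratio was also higher in TERM, at 0.98 in LAR and 1.43 in TERM for the b cluster and 0.72 and 1.01 for the a cluster, while in liver it was 1.71 and 1.54 for the b cluster and 1.22 and 1.24 for the a cluster. In MAT it was lower in TERM, at 1.66 and 0.82 for the b cluster and 1.12 and 0.47 for the a cluster. Over the 13 tissues the median ratio was higher in TERM in 6 for the b cluster and in 7 for the a cluster.

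**Figure D5:**
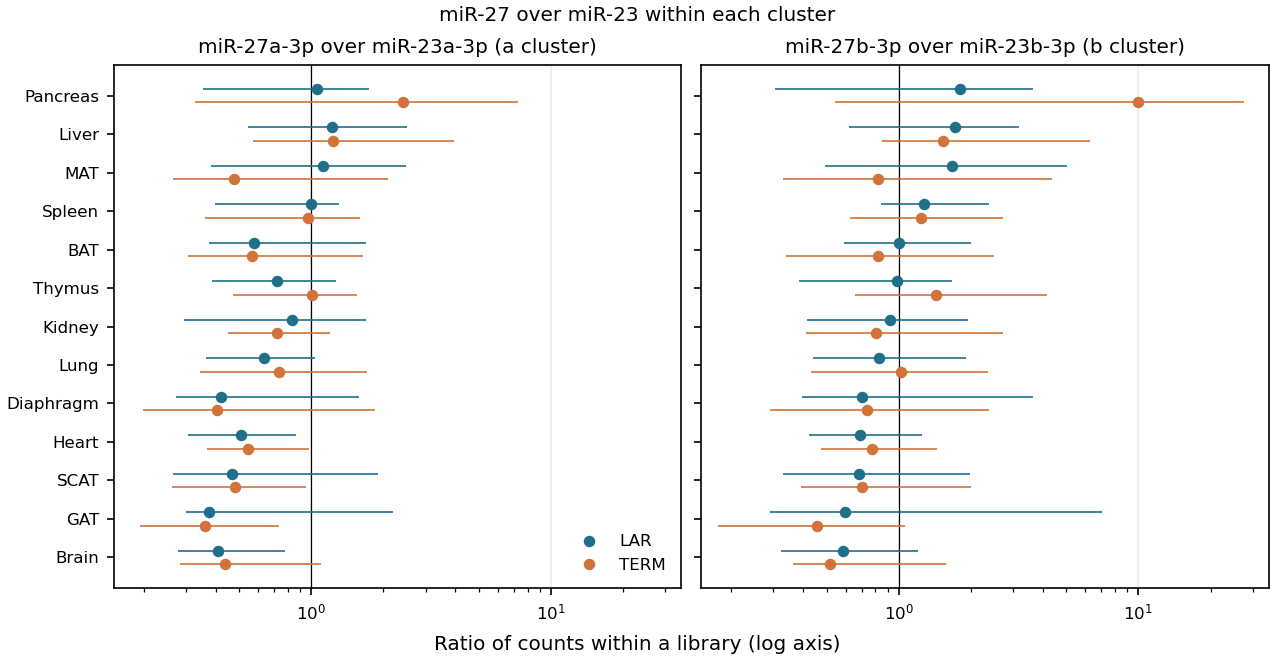
Ratio of miR-27 to miR-23 counts within a library (x axis, log axis) for the a cluster and the b cluster in 13 tissues (y axis). Points are medians and lines the full range in LAR and TERM; pancreas of TERM has the highest median in both clusters, and the LAR and TERM ranges overlap in all 13 tissues, for the a cluster in pancreas through 1 TERM library nearest to MAT.

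Since miR-23b-3p was lower by more than miR-23a-3p, the split of miR-23 between clusters shifted in pancreas while that of miR-27 did not. The share of miR-23a-3p was 44.2%, 48.6% and 62.9% (lowest, median, highest) in LAR and 50.8%, 67.3% and 72.6% in TERM, a log2 ratio apart by 0.87 (permutation test within arms, 2-sided, p = 1e-05, the smallest that 100000 resamples can give, adjusted p = 0.00039). The median share of miR-27a-3p was 36.8% in LAR and 36.7% in TERM. This was the only one of 39 shares called between TERM and LAR. Of 78 tests of the scarce strands 3 were called between TERM and LAR, against 6.81% of all tests, 1 of them miR-23a-5p in MAT (1.56, adjusted p = 0.0006), which turned to -0.76 (adjusted p = 0.659) without the libraries nearest to another tissue. The others were in pancreas, where miR-27b-5p (-1.75, adjusted p = 0.0033) and miR-27a-5p (-1.56, adjusted p = 0.0374) were lower in TERM, the opposite direction to the miR-27 3p strands of the same hairpins. The call of miR-27b-5p held in mice of 3 months alone (-1.75, adjusted p = 0.0165) and in 38 of the 39 fits that left out 1 library, the exception being TERM VGC mouse 2. That of miR-27a-5p held in 27 of the 39, with values from -2.42 to -1.35, and was lost in mice of 3 months alone (-1.57, adjusted p = 0.0741), with plate as a term (-1.57, adjusted p = 0.0705), with no filter on low counts (-1.52, adjusted p = 0.110) and without the doubted pools (-1.56, adjusted p = 0.0539). Both strands rest on few counts in TERM pancreas, where the median library held 2 counts of miR-27b-5p and 1 of miR-27a-5p, and 3 of 11 libraries held 0 of each. In LAR pancreas the median library held 7 and 3.5 counts.

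In MAT, where 37.5% of all miRNAs were called, miR-27b-3p had 6821, 16272 and 33837 CPM in 28 LAR libraries and 3058, 7571 and 20036 in 29 TERM libraries, a change of -1.19 (SE 0.23, adjusted p = 4.38e-05). miR-27a-3p had 6404, 12661 and 24680 CPM in LAR and 2723, 6834 and 15449 in TERM, a change of -0.89 (SE 0.19, adjusted p = 0.000215). The protocols overlapped for both. Of the 28 LAR libraries 18 were nearest to pancreas and 5 to MAT, and the summed pancreas markers had a median of 44279 CPM in LAR and 522 in TERM, ranging from 123 to 133555 and from 59 to 28740. Leukocyte markers had medians of 5086 in LAR and 65925 in TERM. Without the libraries nearest to another tissue the changes were -0.35 for miR-27b-3p (adjusted p = 0.780) and -0.48 for miR-27a-3p (adjusted p = 0.657), and neither was called.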

How the data were processed

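The authors mapped reads to GRCm39 and miRBase 22.1 with miRMaster 2.0, and the deposited table holds estimated counts of each miRNA, which the authors did not normalize. They were rounded for edgeR. Positions were read from RefSeq and gene annotation on GRCm38.p6 and not converted. For each tissue and protocol, edgeR 4.0.16 (R 4.3.3, limma 3.58.1) fitted a quasi-likelihood model with TMM factors over miRNAs that reached 5 reads in 10% or more of an arm's samples, with Benjamini-Hochberg adjustment over all miRNAs of the tissue and contrast and a threshold of 0.05. The 95% intervals took the degrees of freedom of that test. Age, interaction and protocol contrasts used groups of arm by age or by protocol. Levels were compared as log2(CPM + 1) and shares as log2((a + 0.5)/(b + 0.5)) in libraries with at least 20 counts of both strands, by permutation tests, exact up to 200000 splits and otherwise with 100000 resamples. The test of shares over all pairs of tissues used every library, without that minimum of counts. Library profiles used 735 miRNAs more than 2-fold above the median tissue in some tissue. Alternatives were DESeq2 1.42.0, scaling by library size alone, no filter, a Wilcoxon test, plate as a term, a replicate block, the ground controls alone and leaving out libraries or pools. Scripts were tested on simulated data. The text names the 5 members, the other strands of their hairpins, every member called and the 3 miRNAs most like each member. The other members that it names, those with the lowest p or an extreme value, were chosen after their values were seen. The members, lists and tests were chosen with earlier results of these data known. Mouse numbers are shared between arms but belong to different animals, and over 653 pairs of same-numbered mice the median correlation of deviations was 0.0235, against 0.0137 for other pairs.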

Additional observations from a re-analysis of the deposited data

Results flagged for a closer look

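In groups of 4 to 10 libraries (1 tissue, arm and protocol), the highest or lowest CPM of a member was compared with its neighbour by Dixon's test, which chance passes in about 1 of 20 groups. Over all tissues, 79 of 385 combinations of group and member had a library far from the others. Values are given for 10 of 100 combinations, in pancreas and MAT of both protocols, brain and heart of LAR and lung of TERM, the groups that the results above describe by library, which were chosen after their values were seen. The values given are rounded to 3 significant digits. miR-23b-3p was 21000 in FL mouse 13 of LAR pancreas, with the next library at 13000. miR-24-3p was 38500 in FL mouse 14 of LAR pancreas (next 18500) and 29700 in FL mouse 14 of LAR MAT (next 16800). In brain of VGC mouse 5 of LAR, miR-23a-3p was 9400 (next 2830) and miR-27a-3p 7340 (next 1110). In heart of HGC mouse 8 of LAR, miR-23a-3p was 20300 (next 11700) and miR-27a-3p 17600 (next 7060). In heart of VGC mouse 9 of LAR, miR-23b-3p was 24500 (next 14700). In lung of FL mouse 14 of TERM, miR-23a-3p was lowest at 6420 (next 17600), as was miR-27b-3p at 3210 (next 14800). The brain library had the profile of its own tissue and lay in a doubted pool, and each of the other 6 libraries was nearest to another tissue.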

How the results depend on the processing

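With DESeq2 the calls of members were 4 for age in TERM against 2, 10 for TERM against LAR against 6, and 1 against 0 for each of FL against HGC in TERM, that contrast in LAR against TERM, and age by flight in LAR and in TERM. How large a share of all miRNAs DESeq2 called is not given here, so these counts cannot be set beside it. The 2 age calls in TERM were 1 with library size alone, 0 with plate as a term and 0 without the libraries nearest to another tissue. For TERM against LAR the count was 3 with pancreas mice of 3 months alone, 3 over the ground controls alone and 3 to 6 over the 39 fits that left out 1 pancreas library. Leaving out 1 brain library of LAR (12 fits) or 1 brain or pancreas library of TERM (24 fits) gave 0 calls in every arm contrast. The share difference in spleen, 1 call, was 0 without the doubted pools and 0 without the libraries nearest to another tissue. Neighbouring shares, 8 calls, gave 5 in TERM and 15 without the doubted pools, and neighbouring levels, 9 calls, gave 15 without the doubted pools and 15 without the libraries nearest to another tissue. The same-numbered mice are different animals, and a replicate block gave 0 calls in all 6 arm contrasts, as without it. MAT could not be fitted for age or its interaction without the libraries nearest to another tissue. The other 238 counts stayed within 1.5 times the first value, and of single members 175 values kept their call, 37 lost it and 0 changed direction. For the 3 calls of 5p strands, 83 values kept the call, 17 lost it and 1 turned, miR-23a-5p in MAT at -0.76 without the libraries nearest to another tissue. Most of these values, and of the 238 counts, come from fits that left out 1 library and not from a change of setting. The members had at least 798 counts a library, and the 5p strands had medians of 16 to 249 counts over all libraries and lower ones in TERM pancreas.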
